A study of Mus musculus with 10 samples.

Results

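NMDA receptors are glutamate-gated cation channels built from subunits of the Grin genes, and the delta receptors of the Grid genes are their structural relatives. The 8 genes Grin1, Grin2a, Grin2b, Grin2c, Grin2d, Grin3a, Grin3b and Grid1 were measured on 2-colour Agilent mouse arrays by 11 of 39429 probes, taken as every probe whose RefSeq accession belongs to 1 of these genes. Grin1, Grin2a and Grin2b had 2 probes each and the other genes 1. The samples were adult mouse hippocampus, 5 from DLK wild-type (WT) animals and 5 from DLK conditional knockout (cKO) animals. DLK is a dual leucine zipper kinase, the product of Map3k12, that acts upstream of JNK in neurons, and the series title ties it to neuronal degeneration after excitotoxic stimulation. Per the labels' protocols, animals of both genotypes ate tamoxifen for 3 weeks before dissection, to induce the loss of DLK in the cKO animals. The sources used here do not name the recombinase, the cells in which it acts, the exons removed, or the age in weeks and sex of the animals. Each Cy5-labelled sample (750 ng of cRNA) was hybridised against the same Cy3-labelled pool, the Universal mouse reference of Stratagene. The labels give each array a sample number of its own but do not say in words that each is a separate animal, so p-values measure the spread between these samples.

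An NMDA receptor needs the subunit GluN1, which binds the co-agonists glycine and D-serine, together with GluN2 subunits, which bind glutamate, or with GluN3 subunits, which bind glycine and lower calcium entry. GluN2A and GluN2B are the main GluN2 subunits of adult hippocampal pyramidal and granule cells, GluN2D is typical of interneurons, and GluN2C is best known from cerebellar granule cells and is also found in forebrain astrocytes. Excess calcium entry through these channels is the classical trigger of excitotoxic neuronal death. GluD1, the product of Grid1, takes part in synapse organisation by binding cerebellins, which in turn bind presynaptic neurexins.

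Promoter sequence was at hand for 4 of the 8 genes (Grin1, Grin2c, Grin2d and Grin3b), from RefSeq on GRCm38.p6. The 250 bases upstream of the annotated start are shown for Grin1, the subunit every NMDA receptor needs, and for Grin2c, whose probe had the smallest unadjusted p of the 11. Capitals mark GC boxes (GGGCGG on either strand). The Grin1 window is chr2:25319188-25319437 and the Grin2c window is chr11:115267244-115267493, both on the minus strand and written 5′ to 3′.
Grin1: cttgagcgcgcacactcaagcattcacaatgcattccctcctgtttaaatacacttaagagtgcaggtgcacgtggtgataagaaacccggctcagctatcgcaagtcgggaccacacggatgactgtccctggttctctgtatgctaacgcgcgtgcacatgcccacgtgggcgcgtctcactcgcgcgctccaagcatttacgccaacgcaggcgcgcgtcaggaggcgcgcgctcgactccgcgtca
Grin2c: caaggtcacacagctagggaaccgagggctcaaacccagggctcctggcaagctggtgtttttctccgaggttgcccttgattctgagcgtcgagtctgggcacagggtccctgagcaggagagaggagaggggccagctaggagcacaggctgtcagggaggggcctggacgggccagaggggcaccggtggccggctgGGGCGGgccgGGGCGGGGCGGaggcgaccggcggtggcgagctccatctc
The Grin2c window held 3 GC boxes, 2 of which share a base, and had a GC content of 68.8%. No GC box was found in the Grin1 window, with a GC content of 58.8%, nor in those of Grin2d (54.4%) and Grin3b (46.0%). Over all 32851 promoter windows of this length, 32.7% held a GC box and the median GC content was 52.4%. The AP-1 site TGACTCA, bound by the JNK target c-Jun with its partners, was searched on both strands together with the cAMP response element TGACGTCA. Neither was found in the 4 windows. They occurred in 4.46% and 1.55% of all windows. These matches describe letters in a window and were not tested as binding sites.

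Results are given as log2 of the Cy5 over Cy3 ratio (sample over reference) unless called raw spot signal, and differences are cKO minus WT. Dyes were not swapped, so a ratio's level includes the dye effect, while the difference between genotypes does not. Levels of different probes are not comparable with each other. The arrays' median Cy5 signals ran from 146 (cKO replicate 5) to 202 (WT replicate 5), with median backgrounds of 29 to 31. The targeted gene Map3k12 was lower in each of the 5 cKO samples than in each of the 5 WT samples (WT 1.93 ± 0.19, cKO 0.51 ± 0.24, SD, n = 5 each). It fell by 1.41 (log2, SE 0.12; limma, adjusted p = 0.000502, exact two-sided permutation p = 0.00794, the smallest that 5 against 5 samples allow). Hippocampal markers were present: all 5 dentate granule cell genes (Prox1, Calb1, Dsp, Tdo2, C1ql2) and the CA1 genes Wfs1, Fibcd1 and Pou3f1 were well above background and above the reference on all 10 arrays. Arrays lay on 3 slides. Slide 1 held 4 cKO, slide 2 held 3 WT and 1 cKO, and slide 3 held 2 WT arrays, so a comparison within a slide rests on cKO replicate 2.

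All 11 probes were well above background in Cy5 on all 10 arrays and none was saturated, so every member entered the test. With limma, 0 of 11 passed an adjusted p of 0.05 over the 28682 kept probes, of which 3 (0.0105%) passed. At an unadjusted p under 0.05 the count was again 0 of 11, against 3.82% of kept probes. Each of the 11 had an adjusted p of 0.99995. The groups overlapped at all 11 probes, where 0.757% of kept probes had groups that did not overlap. Differences ranged from −0.05 to 0.16. They were above 0 at 7 and below 0 at 4 probes, against 54.6% above 0 over kept probes. Their median was 0.05, beside 0.01 over all kept probes, and in each of 25 alternative settings 0 of the members tested passed.

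**Figure D1:**
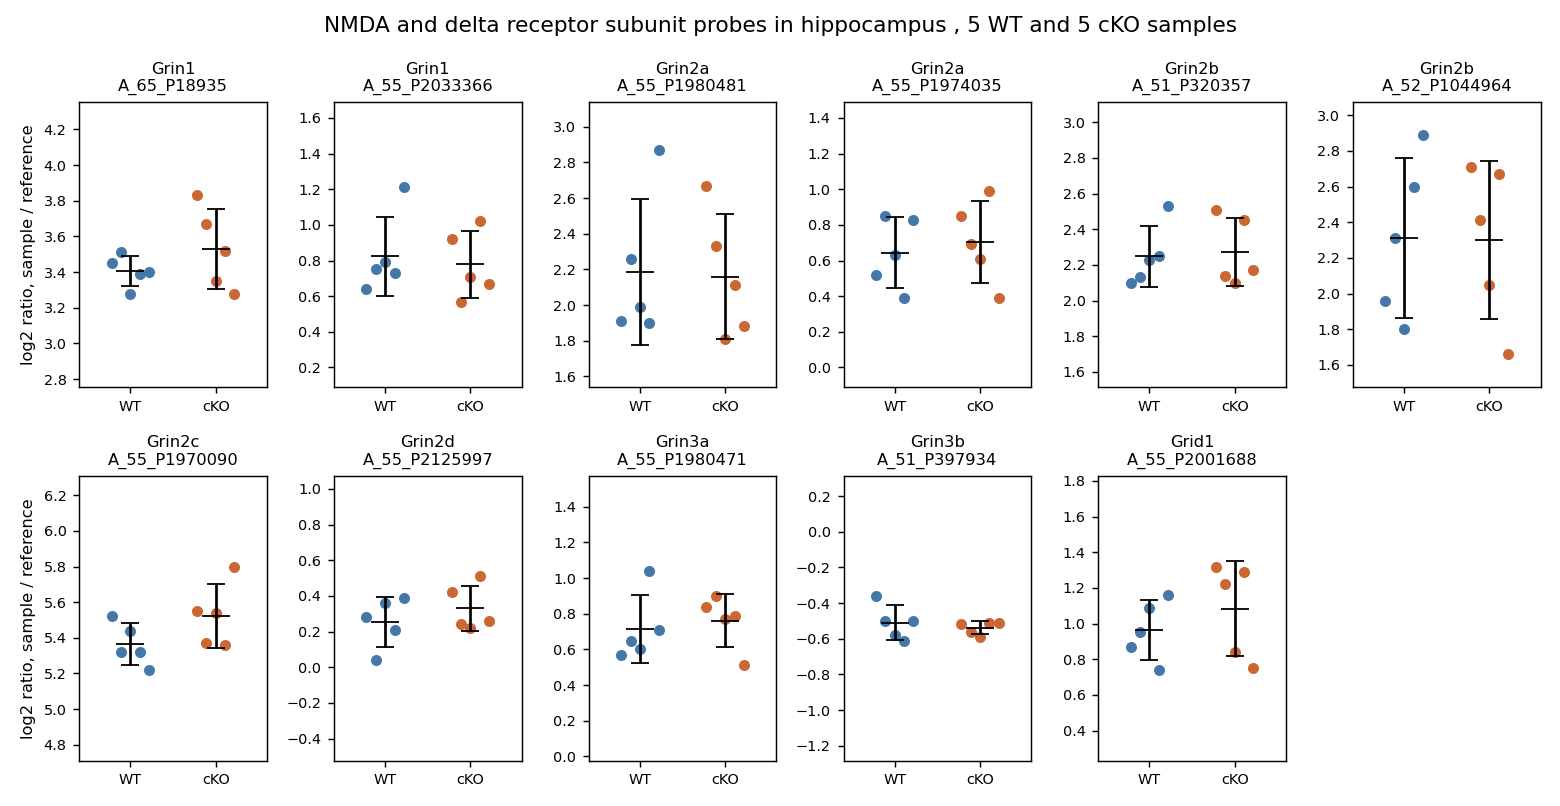
Log2 ratio of sample over reference (vertical axis) at each of the 11 probes in 5 WT (blue) and 5 cKO (orange) samples; points are single samples in replicate order, bars the mean and SD, and every panel spans 1.6 log2 units around its own centre. The groups overlap in all 11 panels, and the spread is widest at Grin2b A_52_P1044964, from 1.66 to 2.89.

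Grin1 encodes GluN1. At probe A_65_P18935 (transcript NM_001177656), well above background in both channels on all arrays, the WT ratios were 3.45, 3.51, 3.28, 3.39 and 3.40 for replicates 1 to 5. The cKO ratios were 3.83, 3.67, 3.35, 3.52 and 3.28. Replicates 1, 2 and 4 of the cKO group lay above all WT samples, and cKO replicate 5 lay level with the lowest WT sample. The means were 3.41 ± 0.09 and 3.53 ± 0.23 (SD, n = 5 each), a difference of 0.12 (SE 0.10, 95% interval −0.09 to 0.34, limma unadjusted p = 0.227), or 1.09-fold with an interval of 0.941 to 1.26. With all spots in the background fit it was 0.36 (unadjusted p = 0.105), with array weights 0.21 (limma unadjusted p = 0.044, adjusted p = 0.466), and with median centring 0.05. Leaving out 1 sample gave 0.05 (cKO replicate 1) to 0.19 (cKO replicate 5). The other Grin1 probe, A_55_P2033366 (NM_008169), was dim, with Cy5 signals of 74 to 146 and Cy3 well above background on 0 of 10 arrays. Its WT ratios were 0.64, 0.75, 0.79, 0.73 and 1.21 and its cKO ratios 0.92, 0.57, 0.71, 1.02 and 0.67. WT replicate 5 stood above the other 9 samples. The difference was −0.05 (95% interval −0.29 to 0.20), with the opposite sign, 0.32, in the scanner software's processed signals. Over the 10 arrays both Grin1 probes showed little relation to each other (Pearson r = 0.06, permutation p = 0.873, Spearman rho = 0.09, permutation p = 0.811). Adjusted over 3 genes, these permutation p-values were 0.873 and 0.811. Without WT replicate 5 and cKO replicate 4, the farthest from the median at A_55_P2033366, r was 0.26.

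Grin2a encodes GluN2A, a glutamate-binding subunit of mature synapses. At A_55_P1980481 (NM_008170) the WT ratios were 1.91, 2.26, 1.99, 1.90 and 2.87. The cKO ratios were 2.67, 2.33, 1.81, 2.11 and 1.88. WT replicate 5 and cKO replicate 1 were high, and the rest of both groups lay between 1.81 and 2.33. The means of 2.19 ± 0.41 and 2.16 ± 0.35 (SD, n = 5 each) differed by −0.03 (SE 0.20, 95% interval −0.46 to 0.40). Cy3 at this spot was 36 to 42 on 9 arrays, near its background, and 77 on cKO replicate 4, the only array on which it was well above background. The Cy5 signal of that sample, 527.5, was second to the 590 of WT replicate 5. The difference was −0.72 with the processed signals, −0.25 with plain background subtraction and 0.05 with Cy5 alone. The other probe, A_55_P1974035, had ratios of 0.39 to 0.85 in WT and 0.39 to 0.99 in cKO samples. It differed by 0.06 (SE 0.12, 95% interval −0.19 to 0.32). The probes of Grin2a varied together over the 10 arrays (Pearson r = 0.64, permutation p = 0.0462, adjusted 0.0693, Spearman rho = 0.72, permutation p = 0.0231, adjusted 0.0406). Without cKO replicates 4 and 5, the farthest from the median at A_55_P1974035, r was 0.79. The r of A_55_P1974035 with the probe of Grid1, another member gene, was 0.83.

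Grin2b encodes GluN2B, the subunit prevalent early in life and retained in the adult forebrain. At A_51_P320357 (NM_008171) the WT ratios were 2.10, 2.13, 2.23, 2.25 and 2.53 and the cKO ratios 2.51, 2.14, 2.10, 2.45 and 2.17. WT replicate 5 and cKO replicates 1 and 4 were high in otherwise level groups. The means of 2.25 ± 0.17 and 2.27 ± 0.19 (SD, n = 5 each) differed by 0.03 (SE 0.10, 95% interval −0.19 to 0.25). At A_52_P1044964, for the same transcript, the WT ratios were 1.96, 2.31, 1.80, 2.60 and 2.89. The cKO ratios were 2.71, 2.41, 2.05, 2.67 and 1.66. WT replicate 5 was again highest, and cKO replicate 5 was lowest. The means of 2.31 ± 0.45 and 2.30 ± 0.44 (SD, n = 5 each) differed by −0.01 (SE 0.23, 95% interval −0.51 to 0.49), or 0.703 to 1.4 times the WT level. The Grin2b probes correlated over the arrays (Pearson r = 0.74, permutation p = 0.0169, adjusted 0.0507; Spearman rho = 0.71, permutation p = 0.0271, adjusted 0.0406). Without WT replicate 5 and cKO replicate 1, the farthest from the median at A_51_P320357, r was lower, at 0.53. Probe pairs of different member genes had r from −0.71 (Grin2b A_52_P1044964 with Grin2c) to 0.90 (Grin2b A_51_P320357 with Grin1 A_55_P2033366). The values for probes of the same gene lay within that range.

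The raw sample signal of Grin2b spread further than its ratio. Cy5 at A_51_P320357 was 440 in cKO replicate 5 and 2445 in WT replicate 5, a 5.56-fold range, where the median kept probe had a 1.6-fold range. Cy3, which reads the same reference RNA on every array, was 91 and 294 on those same arrays, also its lowest and highest values. In both channels cKO replicates 4, 1 and 2 and WT replicate 2 followed WT replicate 5 in that order. The ratio at this spot ranged over 0.43 log2 units. At A_52_P1044964 Cy5 ranged from 348.5 to 1386 (3.98-fold), and Cy3 from 63 to 121 in another order: cKO replicate 5 had the lowest Cy5 signal and a Cy3 signal of 106. The ratio there ranged over 1.22 log2 units. With Cy5 alone, quantile-normalised, the probes differed between genotypes by −0.08 and −0.03.

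**Figure D2:**
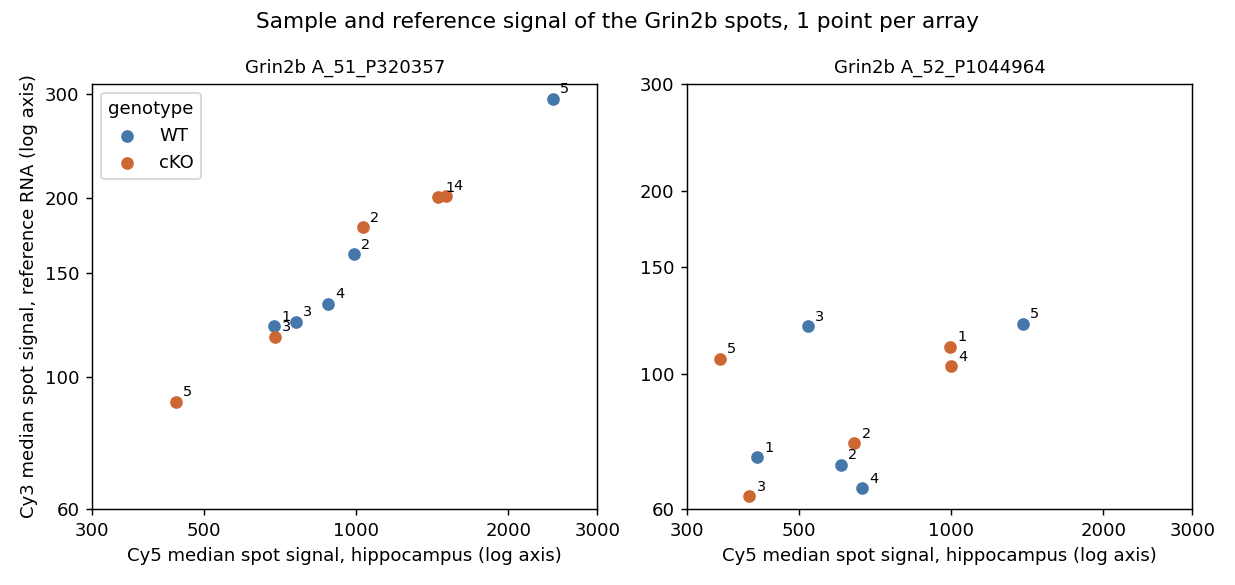
Median Cy3 signal of the reference RNA (vertical, log axis) against median Cy5 signal of hippocampus (horizontal, log axis) at both Grin2b spots, 1 point per array, WT blue and cKO orange, numbered by replicate. On the left Cy3 rises with Cy5 from 91 to 294; on the right the array with the lowest Cy5 signal, cKO replicate 5, has a Cy3 signal of 106.

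Grin2c encodes GluN2C. Its probe A_55_P1970090 (NM_010350) had Cy5 signals of 7258 to 8991 and Cy3 signals of 124 to 155. The WT ratios were 5.52, 5.32, 5.44, 5.32 and 5.22 and the cKO ratios 5.55, 5.37, 5.54, 5.36 and 5.80. Samples 1, 3 and 5 of the cKO group lay above all WT samples. The means of 5.36 ± 0.12 and 5.52 ± 0.18 (SD, n = 5 each) differed by 0.16 (SE 0.09, 95% interval −0.03 to 0.35, limma unadjusted p = 0.0953), the smallest unadjusted p of the members. With slide as a fixed block, or within slide 2, the difference was −0.02, and with slide as a random block it was 0.18 (limma unadjusted p = 0.0277, adjusted p = 0.559). With all spots in the background fit it was 0.41, and with Cy5 alone 0.03. Leaving out cKO replicate 5 gave 0.09, and leaving out cKO replicate 4 gave 0.20 (limma unadjusted p = 0.0479).

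The samples at both ends of the Grin2c values were also those at both ends for markers of other cell types. The mean ratio of 6 astrocyte genes (Gfap, Aqp4, Aldh1l1, Slc1a3, which is also a glutamate uptake gene, Gja1 and Aldoc) was 4.51, 4.51, 4.40, 4.55 and 4.10 in WT and 4.41, 4.24, 4.65, 4.30 and 4.79 in cKO samples. WT replicate 5 was lowest and cKO replicate 5 highest, for these markers and for Grin2c. Those samples also held the lowest and highest means of the choroid plexus, oligodendrocyte, microglia and endothelium lists, 5 of 14 marker lists in all. At Grin2b A_52_P1044964 the order was turned, with WT replicate 5 highest and cKO replicate 5 lowest. The CA1 pyramidal cell list was turned in the same way, highest in WT replicate 5 and lowest in cKO replicate 5. Other neuronal lists differed. In WT and cKO replicate 5, dentate granule cell means were 2.23 and 1.90, and CA2 and CA3 means 1.99 and 1.92. Other samples lay at both ends of these lists. Pan-neuronal means were 4.58 and 4.71, and inhibitory interneuron means 4.02 and 4.23, both higher in cKO replicate 5. Between genotypes 4 of 6 astrocyte genes had higher and 2 lower values in cKO samples, with means per sample of 4.10 to 4.55 in WT and 4.24 to 4.79 in cKO samples, and all 6 were well above background on all 10 arrays. Of the cerebellar granule cell markers, Cbln3 and Barhl2 did not pass the filter on dim probes. Gabra6 was well above background on 5 of 10 arrays (difference 0.36, SE 0.15, limma unadjusted p = 0.0363), and Neurod1 was on 10 of 10 (0.11, SE 0.10). WT replicate 5 and cKO replicate 5 were also the arrays with the highest and lowest median Cy5 signals, 202 and 146. Their mean correlations with the other arrays, 0.9878 and 0.9882, were the lowest of the 10 arrays. The parts of cell composition and of array signal in these marker and receptor values were not tested. In bulk tissue, fewer cells of a type and less RNA per cell cannot be told apart.

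**Figure D3:**
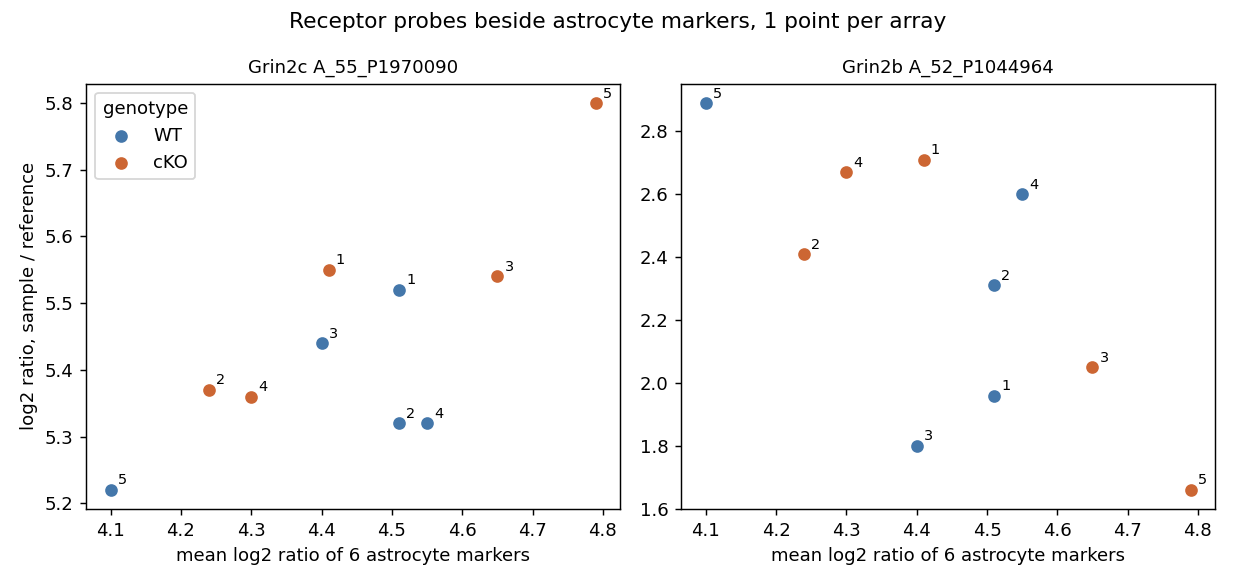
Log2 ratio (vertical) of Grin2c A_55_P1970090, left, and Grin2b A_52_P1044964, right, against the mean log2 ratio of 6 astrocyte markers (horizontal), 1 point per array, WT blue and cKO orange, numbered by replicate. WT replicate 5 (4.10) and cKO replicate 5 (4.79) mark both ends of the marker axis, at 5.22 and 5.80 for Grin2c and at 2.89 and 1.66 for Grin2b.

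The remaining members were dim. Grin2d, the interneuron subunit GluN2D, had Cy5 signals of 65 to 107, ratios of 0.04 to 0.39 in WT and 0.22 to 0.51 in cKO samples, and a difference of 0.07 (SE 0.08, 95% interval −0.10 to 0.25). The processed signals gave 0.30 for it, and plain subtraction of the background 0.40. Grin3a, whose product GluN3A is most abundant in young animals, had ratios of 0.57, 0.65, 0.60, 1.04 and 0.71 in WT samples. In cKO samples they were 0.84, 0.90, 0.77, 0.79 and 0.51, and WT replicate 4 was highest and cKO replicate 5 lowest of the 10. The difference was 0.05 (SE 0.10, 95% interval −0.16 to 0.26). With plain background subtraction it was 0.73 (limma unadjusted p = 0.0567), but that value leaves out WT replicate 4. The Cy3 signal of that sample, 39.5, lay below its background of 42, so it had no ratio in that setting. Cy3 was well above background on 0 of 10 arrays for Grin3a, and on 2 of 10 for Grin2d. Grin3b, a subunit best known from motor neurons, was the only member below the reference in every sample, with Cy5 of 70 to 93 and Cy3 of 108 to 129. Its ratios lay between −0.61 and −0.36, and the difference was −0.03 (SE 0.06, 95% interval −0.15 to 0.10), the narrowest of the members.

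Grid1, the delta receptor gene, had WT ratios of 0.87, 0.95, 1.09, 0.74 and 1.16. Its cKO ratios were 1.32, 1.22, 0.84, 1.29 and 0.75. Replicates 1, 2 and 4 of the cKO group lay above all WT samples, and the other 2 lay among the lower WT values. The means of 0.96 ± 0.17 and 1.08 ± 0.27 (SD, n = 5 each) differed by 0.12 (SE 0.12, 95% interval −0.14 to 0.38, limma unadjusted p = 0.345). Cy5 was 101.5 to 171, and Cy3 was well above background on 0 of 10 arrays. The difference was 0.68 with the processed signals and 0.37 with plain subtraction (unadjusted p = 0.0722 and 0.409). Within slide 2 it was 0.37 (limma unadjusted p = 0.0182, adjusted p = 0.593), and that value rests on 1 cKO sample.

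The 95% interval of every member lay within 1.5-fold either way, as it did for 98.6% of kept probes. The ratios include an offset of 50, which pulls dim spots towards 0. With plain background subtraction 4 of 11 intervals lay within 1.5-fold, and 6 within 2-fold. With the processed signals the counts were 4 and 8. The intervals past 2-fold belonged to Grid1, Grin1, Grin2a, Grin2d and Grin3a. With the offset kept, 6 of 11 intervals lay within 1.5-fold with slide as a fixed block, where 1 probe each of Grin2a and Grin2b passed 2-fold. Within slide 2 the count was 8, and keeping all spots for the background fit gave 6. When 1 sample was left out, a Grin2b interval passed 1.5-fold in 9 of 10 fits.

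**Figure D4:**
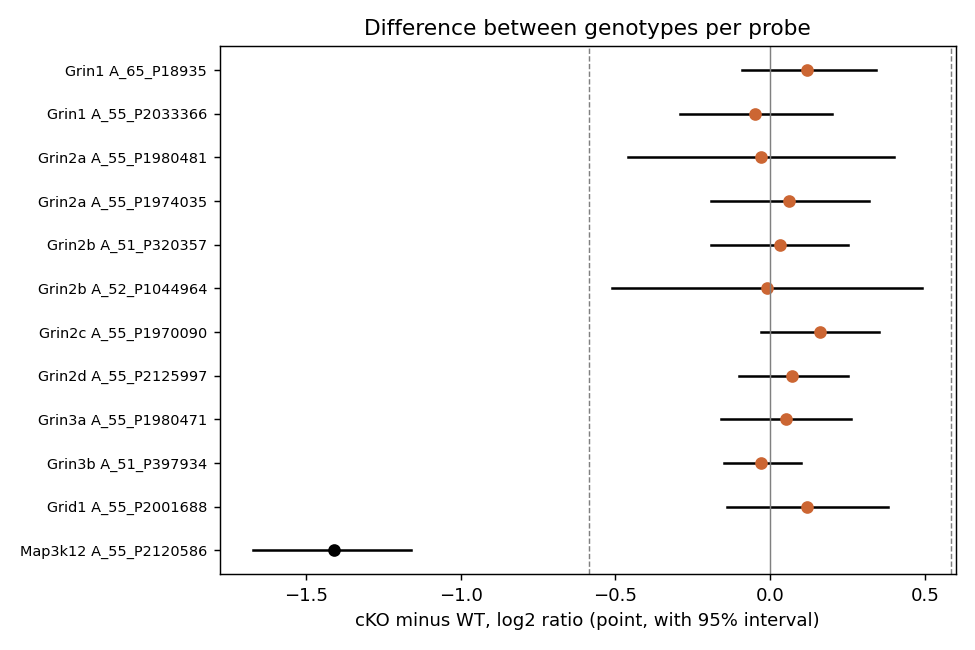
Difference in log2 ratio, cKO minus WT (horizontal axis), with its 95% interval for the 11 member probes (orange) and for Map3k12 (black); dashed lines mark 1.5-fold either way. All 11 member intervals include 0 and lie between the dashed lines, and Map3k12 lies at −1.41.

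The spread between samples exceeded that of the median kept probe at 10 of 11 members. The median residual SD was 0.18 over the 11 members and 0.12 over all kept probes. Grin2b A_52_P1044964, with a residual SD of 0.44, ranked at the 99.5th percentile of kept probes, and Grin2a A_55_P1980481, with 0.38, at the 99.2nd percentile. Grin3b, with 0.07, ranked at the 13th percentile. The same samples were high or low at many members. Of the 11 probes, cKO replicate 1 was among the 3 highest samples at 10, cKO replicate 4 at 7 and WT replicate 5 at 6. The other cKO samples were among the 3 highest at 1 to 4 probes, and the other WT samples at 0 to 2. Sample cKO replicate 5 was among the 3 lowest at 7, WT replicate 4 and cKO replicate 3 at 6 each, and WT replicate 1 at 5.

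The genes with a pattern most like Grin1 A_65_P18935 over the 10 arrays, among 16260 other named genes, were Tubgcp5 (Pearson r = 0.931, Spearman rho = 0.879), Gjd2, the neuronal gap junction gene (0.926 and 0.782), 3110021A11Rik (0.918 and 0.709), Nop14 (0.892 and 0.891) and Nalcn, a sodium leak channel gene (0.889 and 0.842). They were picked as the highest of many, so no p is given.

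Genes that act with these receptors did not pass the test either. Of 28 measured scaffold and signalling partners 23 had higher and 5 lower values in cKO samples, 0 passed, and 2 had an unadjusted p under 0.05. The smallest p-values were those of Dlgap1, a scaffold of the postsynaptic density (0.17, SE 0.06), and of Camk2b (0.14, SE 0.06) and Camk2a (0.23, SE 0.12), kinases activated by calcium and calmodulin. The median of this list was 0.06. Of 6 receptor transport genes 5 had higher values and 0 passed, with Apba1 at 0.14 (SE 0.07), Cask at 0.07 (SE 0.06) and Lin7b at 0.08 (SE 0.10). Among 9 genes of glycine and D-serine supply and removal 5 had higher and 4 lower values, and 0 passed. The glycine transporter gene Slc6a9 was at 0.27 (SE 0.08, limma unadjusted p = 0.00482), the D-amino acid oxidase gene Dao at 0.36 (SE 0.14, unadjusted p = 0.0228), and Slc7a10, a transporter of D-serine, at 0.15 (SE 0.08). In the same comparison 8 of 10 oligodendrocyte markers had higher values (median difference 0.26, means per sample of 3.06 to 3.46 in WT and 3.45 to 3.64 in cKO samples). So had 10 of 10 choroid plexus and ependyma markers, with a median difference of 1.1 and means per sample of 0.58 to 1.64 and 1.57 to 2.91. Higher values at an unadjusted p under 0.05 were found for 5 oligodendrocyte and 7 choroid plexus markers, against 2.78% of kept probes. Of both marker lists 0 genes passed after adjustment, and all were well above background on all 10 arrays. The 5 endothelium markers had a median difference of 0.21, with higher values at an unadjusted p under 0.05 for 3. For the 6 astrocyte markers the median was 0.05, and 0 had such a p. The part of any of these cell types in the values of Slc6a9 and Dao was not tested.

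Of 8 genes of glutamate release and uptake 6 had higher and 2 lower values and 0 passed, led by the vesicular transporter gene Slc17a6 (0.37, SE 0.19), the uptake carrier gene Slc1a1 (0.12, SE 0.06) and Slc17a8 (0.14, SE 0.10). Of 7 measured delta receptor partners 6 had higher values and 0 passed. Among them Grid2ip was at 0.11 (SE 0.08) and Nrxn3, a presynaptic neurexin gene, at 0.07 (SE 0.08). Of 9 measured AMPA and kainate receptor genes 7 had higher and 2 lower values and 0 passed, with Gria3 at 0.23 (SE 0.07), Gria4 at 0.20 (SE 0.08) and Grik1 at 0.19 (SE 0.09). Each of these named partners had an adjusted p of 0.99995. Across the 6 lists, each gene read at its probe of highest intensity, 7 of 67 genes had an unadjusted p under 0.05, all with higher values, against 2.78% of kept probes in that direction. The medians of the lists were 0.06 to 0.11, beside 0.01 over all kept probes. Pan-neuronal markers had higher values at 6 of 6 genes, with a median of 0.12, and 0 passed.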

How the data were processed

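RNA of 10 hippocampus samples was read on 10 arrays with 44397 spots each. The deposited scanner files hold intensity values from Agilent Feature Extraction 11.0.1.1, as run by the authors per the file headers: unnormalised median spot and background intensity, processed intensity and the log10 ratio of processed Cy5 over Cy3. The authors' deposited value table holds log2 ratios, made with limma per the submitters' processing notes, which give no settings. Each of its columns correlated at 0.99997 or more with the ratios computed here, with column medians of 0.012 to 0.0204, so its scale is log2 of sample over reference.

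Spots marked as non-uniform were removed, backgrounds corrected with normexp (offset 50), ratios normalised by loess within arrays (control spots at weight 0), population outliers removed and spots averaged, in limma 3.58.1 and R 4.3.3. Probes with Cy5 well above background on at least 5 arrays were kept. RefSeq accessions were matched to gene symbols for 67.4% of probes through a GRCm38.p6 table; the array headers name mm9, so gene coordinates of that table are not given. Genotypes were compared with lmFit and eBayes, two-sided, Benjamini-Hochberg over kept probes. The members and lists were chosen with earlier results of these data known. Named were all member probes, for each list the 3 genes with the smallest p at their probe of highest intensity (1 of the delta receptor partners is not reported here), and the 5 genes most like Grin1. Some facts singled out (the samples that stand apart, the astrocyte markers beside Grin2c) were chosen after their values were seen. The number of arrays limits the precision. Scripts were tested on simulated data. Alternatives covered background, normalisation, filter, slide, weights, replicate block and each sample left out.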

Additional observations from a re-analysis of the deposited data

Results flagged for a closer look

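Over 24 groups of 5 ratios (2 genotypes at 11 member probes and Map3k12), 2 had a sample far from the others, where the gap to the nearest sample exceeded 0.71 of the group's range; chance gives about 1 in 20. At Grin1 A_55_P2033366, WT replicate 5 had a ratio of 1.21, and the other WT samples lay between 0.64 and 0.79. At Grin3a A_55_P1980471, WT replicate 4 had a ratio of 1.04, and the other WT samples lay between 0.57 and 0.71. Without those samples the differences of these probes were 0.05 and 0.13.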

How the results depend on the processing

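Under 25 alternatives 0 of the member probes tested passed the threshold, and the median member difference lay between −0.01 and 0.18 (−0.01 to 0.11 with 1 sample left out). Grin1 A_65_P18935, Grin2d, Grin3a and Grid1 kept their direction in all 25, but with 1 sample left out they ranged from 0.05 to 0.19, 0.02 to 0.11, 0.01 to 0.13 and 0.06 to 0.20. The other 7 probes changed sign under at least 1 alternative, among them Grin2c, and the cause was not tested. With all spots in the background fit Grin2b A_52_P1044964 was at 0.21, Grin2a A_55_P1980481 at 0.25 and Grin1 A_55_P2033366 at 0.05. With median centring Grin2b A_51_P320357 was at −0.04. With processed signals Grin3b was at 0.03 and Grin1 A_55_P2033366 at 0.32. With Cy5 alone Grin2b A_51_P320357 was at −0.08, Grin3b at 0.06 and Grin2a A_55_P1980481 at 0.05. With slide as a fixed block, and within slide 2, Grin2b A_51_P320357 was at −0.03, A_52_P1044964 at 0.12, Grin2c at −0.02 and Grin2a A_55_P1980481 at 0.30. With array weights Grin2b A_52_P1044964 was at 0.29, Grin2a A_55_P1980481 at 0.17 and Grin1 A_55_P2033366 at 0.06. With 1 sample left out, Grin2b A_51_P320357 ranged from −0.03 to 0.10, A_52_P1044964 from −0.14 to 0.15, Grin2a A_55_P1980481 from −0.15 to 0.14, A_55_P1974035 from −0.01 to 0.14, Grin1 A_55_P2033366 from −0.11 to 0.05 and Grin3b from −0.05 to 0.01.

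Over the whole array 3 probes passed, 1 with all spots in the background fit, 1 with Cy5 alone, 1 with the probe of highest intensity per gene, 0 within slide 2 (2388 at an unadjusted p under 0.05), and 2 to 4 with 1 sample left out. Map3k12 was at −1.26 with all spots in the background fit (limma adjusted p = 0.969) and at −1.18 with Cy5 alone (0.0773). Within slide 2 it was at −1.81, a value that rests on cKO replicate 2. The reference signal of Map3k12 in that sample was 314 in Cy3, and no other sample exceeded 128. Hippocampal signal there, 390.5 in Cy5, was the highest of the cKO group, yet the ratio of 0.11 was the lowest. The part of the Cy3 signal in this ratio was not tested. Leaving out cKO replicate 2 gave −1.31, and fits with 1 sample left out ran from −1.46 to −1.31. Same-numbered samples do not share a pairing by the labels, and their deviations correlated from −0.56 to 0.16; with the replicate block 2 probes and 0 members passed. Reference signal near background limits the ratios of Grid1, Grin2d, Grin3a and 1 probe each of Grin1 and Grin2a.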
